A study of Mus musculus with 4 samples.

Results

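The genes of the mitochondrial chromosome were read across 4 RNA-seq libraries of mouse peritoneal macrophages. They are all rows of the gene count table placed on chromosome MT: 37 of 54532 genes, made up of 13 protein-coding genes, 22 tRNAs and 2 rRNAs. A count of 10 reads or more in 1 or more libraries was reached by 21 of the 37, namely 12 coding genes, both rRNAs and 7 tRNAs. A further 9 members had fewer reads and 7 tRNAs had none. All libraries came from wild-type (WT) macrophages of peritoneal fluid. Per the study's methods the mice were BALB/c, aged 8 to 10 weeks, and the cells were elicited with thioglycollate for 5 days. Cells of the control library were kept in normal medium plus DMSO, and those of the CH223191-only library in normal medium plus 10 µM CH223191. The 4T1-CM-only library came from 30% 4T1-conditioned medium (4T1-CM) plus DMSO, and the combined library from 30% 4T1-CM plus 10 µM CH223191. Sets of 4 values below are in this order. CH223191 is an antagonist of the aryl hydrocarbon receptor (AHR), a ligand-activated transcription factor, DMSO is its solvent, and 4T1 is a mouse mammary carcinoma line. The culture with 4T1-CM was used to ask how tumor-derived factors act on macrophages through AHR. The labels do not say how many mice were pooled or how long the cells were treated. There was 1 library per condition, so the spread between replicates is not known. No difference between conditions was tested, and every fold below compares 2 libraries. Intervals are exact 95% intervals for the split of reads between 2 libraries or for a share of reads, and exact Poisson intervals for a level, and they cover counting error only.

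Mitochondrial DNA is a small circle that is transcribed in full from both strands by its own polymerase. The long precursors carry tRNAs between most of the other genes, and excision of the tRNAs releases the mRNAs and rRNAs. The coding genes specify core subunits of the respiratory chain: *mt-Nd1* to *mt-Nd6* and *mt-Nd4l* of complex I (NADH dehydrogenase), *mt-Cytb* of complex III, *mt-Co1* to *mt-Co3* of complex IV (cytochrome c oxidase), and *mt-Atp6* and *mt-Atp8* of complex V (ATP synthase). All other subunits of these complexes are encoded in the nucleus. In macrophages the respiratory chain is known to change with activation, and mitochondrial transcripts are a large part of the RNA of many cells.

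Most tRNA reads fell on 3 genes, which are therefore shown whole with the anticodon in capitals, in the DNA letters of the transcribed tRNA. *mt-Tp* carries proline and lies at MT:15356-15422, *mt-Tc* carries cysteine at MT:5192-5257, and *mt-Tn* carries asparagine at MT:5089-5159, all on the minus strand (GRCm38). *mt-Tp* borders the non-coding control region, and *mt-Tn* and *mt-Tc* flank the short origin of light-strand replication.

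mt-Tp: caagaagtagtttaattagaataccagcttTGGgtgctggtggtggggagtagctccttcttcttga
mt-Tc: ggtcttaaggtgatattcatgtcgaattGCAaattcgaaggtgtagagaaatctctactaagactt
mt-Tn: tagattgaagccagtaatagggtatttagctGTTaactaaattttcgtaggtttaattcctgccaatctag

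A part of the mitochondrial chromosome has a near-identical copy in the nuclear genome, which bears on how its reads can be placed. A run of 7 unprocessed pseudogenes on the minus strand of chromosome 1 (chr1:24611535-24616197, GRCm38) matched positions 6390 to 11042 of MT in order. The copied segment starts inside *mt-Co1*, holds 6 coding genes whole (*mt-Co2*, *mt-Atp8*, *mt-Atp6*, *mt-Co3*, *mt-Nd3* and *mt-Nd4l*) and 5 tRNAs, and ends inside *mt-Nd4*. Of the 50-base words of *mt-Co2*, 100% also occurred in another annotated gene. The same share was 99.9% for *mt-Co3*, 99.5% for *mt-Atp6*, 98.8% for *mt-Nd4l*, 98.0% for *mt-Nd3*, 62.2% for *mt-Nd4* and 51.1% for *mt-Co1*. It was at most 8.2% for every other member. No 50-base word of *mt-Atp8* or of a tRNA occurred in another annotated gene, although *mt-Atp8* and 5 tRNAs lie within the segment by position. Only annotated transcripts were searched, so the bases between the pseudogenes were not compared, and these members may have copies there. The 80 bases shown first are the edge of the segment in *mt-Co1* (MT:6354-6433), where the sequence in capitals is identical to the pseudogene *Gm29216* and that in lower case lies before the identical stretch. The identical stretch runs on for 479 bases from base 1067 of the gene to its end.

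mt-Co1: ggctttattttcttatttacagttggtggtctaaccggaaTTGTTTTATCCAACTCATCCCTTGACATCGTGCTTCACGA

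The next set compares 80 bases of *mt-Co2* (MT:7457-7536) with its copy *Gm28661* on chromosome 1 (chr1:24615042-24615121, minus strand) and with the less similar copy *Gm13341* on chromosome 2 (chr2:22587451-22587530, minus strand). The 7 positions in capitals are those at which *Gm13341* differs from *mt-Co2*. *Gm28661* carries the mitochondrial base at each of them, so a read from this window cannot be assigned to *mt-Co2* or to *Gm28661* by its sequence.

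mt-Co2: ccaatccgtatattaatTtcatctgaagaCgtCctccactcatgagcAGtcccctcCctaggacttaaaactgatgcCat
Gm28661: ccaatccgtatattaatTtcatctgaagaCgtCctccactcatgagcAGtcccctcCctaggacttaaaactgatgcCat
Gm13341: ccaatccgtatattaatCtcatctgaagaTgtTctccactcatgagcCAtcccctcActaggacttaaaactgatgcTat

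The libraries held between 15535405 and 17557127 counted reads. All 7 macrophage markers were detected in each library, and their summed level in counts per 1000000 TMM-scaled reads (CPM) was 14030, 18260, 37500 and 40030 in the 4 libraries. *Lyz2* gave most of the macrophage sum, with 189512, 241493, 576935 and 577870 reads. The summed level of the 5 fibroblast markers lay between 28.6 and 133 CPM and that of the 5 neutrophil markers between 6.96 and 32.1 CPM, both with their highest values in the 4T1-CM-only library. Most of the neutrophil sum was *S100a8*, with 99, 190, 560 and 412 reads. *Cxcr2* went the other way, with 12, 9, 2 and 0 reads, and *S100a9* and *Retnlg* had no read. *Ly6g*, *Cd3d*, *Cd3e* and *Cd3g* had no read in any library, the 4 T cell markers summed to at most 1.45 CPM, and B cell, epithelial, mast cell and mesothelial markers summed to at most 1.17 CPM each. The part of these shifts in the mitochondrial values was not tested. In bulk RNA, fewer cells of a type and less RNA per cell cannot be told apart.

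The control macrophages had the smallest share of mitochondrial reads, and both 4T1-CM libraries had the largest. The 37 genes together took 0.633% of all reads (interval 0.629 to 0.637) in the control library and 1.17% (1.16 to 1.17) in the CH223191-only library. They took 1.76% (1.75 to 1.76) in the 4T1-CM-only library and 1.79% (1.79 to 1.80) in the combined one. The makeup of these reads also differed between media. Coding genes gave 92.7% and 94.3% of the mitochondrial reads in the 2 normal medium libraries, against 83.7% and 85.8% in 4T1-CM. The rRNAs gave 7.01% and 4.78% in normal medium and 15.6% and 13.6% in 4T1-CM. The tRNAs gave under 1% in every library, from 0.292% in the control to 0.887% in the CH223191-only library.

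**Figure D1:**
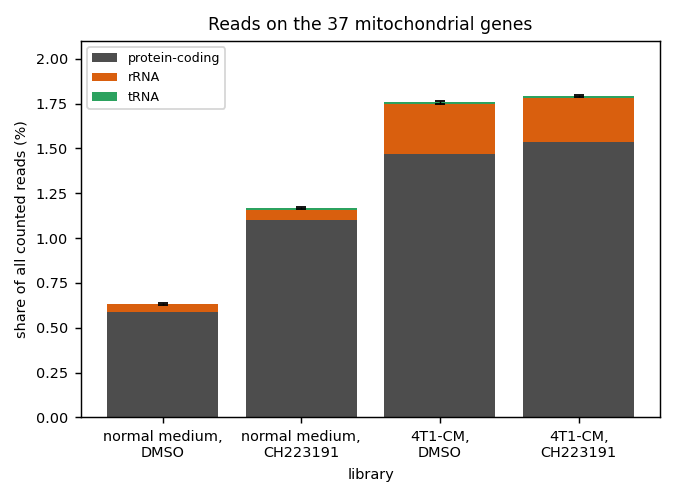
Share of all counted reads (percent, vertical axis) on the 37 mitochondrial genes in each of the 4 libraries, stacked by protein-coding genes, rRNAs and tRNAs. Error bars are the 95% counting intervals of the total, which goes from 0.633% in the control to 1.79% in the combined library.

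Per unit of length, levels along the chromosome fell into separate tiers that followed the copied segment. In the control library the 5 coding genes outside the segment had between 230.0 and 784 CPM per kilobase, with a median of 471. The 6 coding genes wholly inside it had between 0.361 and 15.8, with a median of 1.74. The gap was of the same kind in the other libraries: a median of 694 outside against 9.66 inside with CH223191 only, 893 against 11.3 with 4T1-CM only, and 817 against 20.6 with both. The grouping by the segment was made after the values were seen. *mt-Co1*, whose first part lies outside the segment, had the highest level of all members in every library, with 2105, 3510, 5347 and 5917 CPM per kilobase. *mt-Nd4*, which lies partly in the segment, had 105 CPM per kilobase in the control and between 453 and 475 in the other 3. How reads that match several places were counted is not given in the sources used here, and its part in these tiers was not tested.

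**Figure D2:**
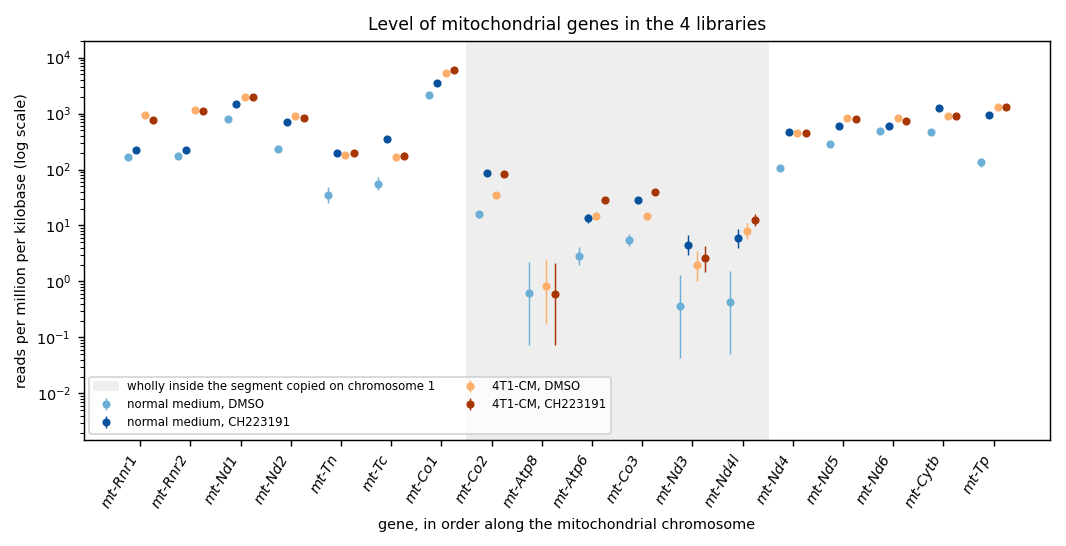
Level of the 13 coding genes, 2 rRNAs and 3 tRNAs in CPM per kilobase (log scale) in order along the chromosome, with 1 point per library and 95% counting intervals. The shaded genes lie wholly inside the segment copied on chromosome 1 and reach at most 85.3, and *mt-Atp8* in the CH223191-only library had no read and is not drawn.

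Among the complex I genes outside the copied segment, all 4 had more reads in the 3 treated libraries than in the control. *mt-Nd1*, a membrane subunit near the ubiquinone site, had 11967 reads in the control, 22985 in the CH223191-only, 33505 in the 4T1-CM-only and 31337 in the combined library. Its log2 ratio of 4T1-CM to normal medium was 1.35 (1.32 to 1.38) with DMSO and 0.42 (0.39 to 0.44) with CH223191. *mt-Nd2*, a proton-pumping subunit, had 3806, 11460, 16438 and 13770 reads in the same order. Its 4T1-CM ratio was 1.98 (1.92 to 2.03) with DMSO and 0.23 (0.20 to 0.27) with CH223191, the widest drop among these 4 genes. *mt-Nd5*, a further proton-pumping subunit, had 8255, 17482, 26242 and 23254 reads, with 4T1-CM ratios of 1.53 (1.498 to 1.569) and 0.38 (0.35 to 0.41).

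*mt-Nd6*, the single coding gene on the opposite strand, varied least of these genes. It had 4073, 5027, 7690 and 6294 reads, and its 4T1-CM ratio was 0.78 (0.73 to 0.84) under DMSO and 0.29 (0.24 to 0.35) under CH223191. Relative to the other 4 coding genes outside the segment, *mt-Nd6* had 0.125 reads per read of theirs (0.121 to 0.129) in the control. That ratio was 0.0676, 0.0818 and 0.0738 in the other 3 libraries. The end of *mt-Nd6* overlaps that of *mt-Nd5*, and whether counting used strand is not given in the sources used here, so reads of the 2 genes and of antisense RNA across *mt-Nd6* cannot be told apart there.

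*mt-Cytb*, cytochrome b of complex III, was the one coding gene outside the segment whose reads peaked in the CH223191-only library. It had 8582, 22448, 17880 and 16903 reads. The 4T1-CM ratio was 0.92 (0.89 to 0.96) with DMSO and -0.44 (-0.47 to -0.41) with CH223191, so its sign differed between the compound and its solvent. In the control it had 471 CPM per kilobase (461 to 481), under *mt-Nd1* at 784 and next to *mt-Nd6* at 492 (477 to 508), whose interval overlapped with its own. In the CH223191-only library it had 1234 CPM per kilobase, with *mt-Nd1* alone above it among the 5 genes. In the 4T1-CM-only library the intervals of *mt-Nd2* (905, 891 to 919) and *mt-Cytb* (893, 880 to 906) overlapped, and so did those of *mt-Nd6* (846, 828 to 866) and *mt-Nd5* (822, 812 to 832).

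*mt-Co1*, the catalytic subunit of cytochrome c oxidase, alone held 56.9%, 48.6%, 56.0% and 58.9% of the coding reads. It had 51836, 86248, 144620 and 148502 reads. Its 4T1-CM ratio was 1.35 (1.33 to 1.36) with DMSO and 0.75 (0.74 to 0.77) with CH223191. *mt-Nd4* of complex I had 2312, 10401, 10971 and 10137 reads, so the control stood apart from 3 libraries of like level. The 4T1-CM ratio of *mt-Nd4* was 2.11 (2.05 to 2.18) with DMSO and -0.07 (-0.11 to -0.03) with CH223191.

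In normal medium, all 10 coding genes with over 3 reads in both libraries had more reads with CH223191 than with DMSO, but by unequal amounts. The log2 ratio was 0.31 (0.25 to 0.37) for *mt-Nd6*, 0.74 (0.72 to 0.75) for *mt-Co1*, 0.95 (0.91 to 0.98) for *mt-Nd1* and 1.09 (1.05 to 1.12) for *mt-Nd5*. It was 1.39 (1.35 to 1.43) for *mt-Cytb*, 1.59 (1.54 to 1.65) for *mt-Nd2* and 2.17 (2.11 to 2.24) for *mt-Nd4*. In 4T1-CM the same 7 genes had log2 ratios of CH223191 to DMSO between -0.18 (*mt-Nd6*) and 0.15 (*mt-Co1*). Summed over the 13 coding genes, CH223191 gave 1.95-fold more reads in normal medium (1.94 to 1.97) and 1.05-fold more in 4T1-CM (1.05 to 1.06). The sum without *mt-Co1* went from 2.33-fold higher (2.30 to 2.36) to 0.982-fold (0.974 to 0.990).

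Both rRNAs differed far more with medium than with CH223191. *mt-Rnr1*, the 12S rRNA of the small mitochondrial ribosomal subunit, had 2552, 3416, 15884 and 11681 reads. *mt-Rnr2*, the 16S rRNA of the large subunit, had 4336, 5578, 32253 and 28310 reads. The lowest 4T1-CM value was over the highest normal medium value for both. Against the matching normal medium, the pair was 6.36-fold higher in 4T1-CM under DMSO (6.21 to 6.53) and 4.35-fold higher under CH223191 (4.25 to 4.45). CH223191 moved the pair 1.31-fold (1.27 to 1.35) in normal medium and 0.895-fold (0.883 to 0.907) in 4T1-CM. For each read of the 5 coding genes outside the segment there were 0.188 and 0.113 rRNA reads in the 2 normal medium libraries, and 0.473 and 0.437 in 4T1-CM. The 2 rRNAs were not in a fixed ratio: *mt-Rnr2* had 1.70 reads per *mt-Rnr1* read (1.62 to 1.79) in the control, 1.63 (1.57 to 1.70) with CH223191 only, 2.03 (1.99 to 2.07) with 4T1-CM only and 2.42 (2.37 to 2.48) with both. Whether the RNA was selected for poly(A) tails or depleted of rRNA is not stated. Of 7 listed RNAs known to be retained in the nucleus or to lack long tails, 3 had at least 10 reads. Their median log2 ratio for 4T1-CM was 0.11 with DMSO (lowest to highest -0.61 to 0.11) and -0.08 with CH223191 (-0.46 to 0.20). For CH223191 against DMSO it was 0.55 in normal medium (-0.66 to 0.60) and 0.36 in 4T1-CM (-0.56 to 0.75). The 3 thus differed in direction, and none was past 2-fold in any comparison. The part of RNA selection in the mitochondrial values was not tested.

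Of the 22 tRNAs, the light-strand genes shown above held 242 of 287 tRNA reads in the control, 1610 of 1670 with CH223191 only, 1948 of 2036 with 4T1-CM only and 1848 of 1903 with both. *mt-Tp* had 143, 1020, 1531 and 1428 reads. *mt-Tc* had 59, 368, 190 and 190 reads, and *mt-Tn* had 40, 222, 227 and 230. All 3 were lowest in the control, while *mt-Tc* alone peaked in the CH223191-only library. The strand named here is that of the annotated gene. Whether counting used strand is not given, so antisense RNA across these genes cannot be told apart from their own. The log2 ratio of CH223191 to DMSO in normal medium was 2.83 (2.58 to 3.10) for *mt-Tp*, 2.63 (2.24 to 3.07) for *mt-Tc* and 2.46 (1.985 to 2.9997) for *mt-Tn*. In 4T1-CM these 3 ratios lay between 0.01 and 0.13, and each interval contained 0. The 4T1-CM ratio of *mt-Tp* was 3.28 (3.04 to 3.54) with DMSO and 0.45 (0.34 to 0.57) with CH223191, that of *mt-Tn* 2.36 (1.88 to 2.89) and 0.02 (-0.25 to 0.29), and that of *mt-Tc* 1.54 (1.124 to 1.999) and -0.98 (-1.24 to -0.73).

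The other 19 tRNAs together had 45, 60, 88 and 55 reads. The other light-strand tRNAs took only 8, 15, 5 and 9 of these, so most tRNA genes of that strand had few reads. *mt-Tl1* and *mt-Tl2* (leucine), *mt-Tw* (tryptophan) and *mt-Ts2* (serine) reached 10 reads. *mt-Tl1* had 10, 17, 16 and 14 reads, *mt-Tl2* 7, 10, 16 and 9, *mt-Tw* 8, 6, 15 and 8, and *mt-Ts2* 8, 3, 18 and 12. In the 4 comparisons their intervals contained 0 except that of *mt-Ts2* for 4T1-CM with CH223191, at 0.08 to 4.43, which rests on 3 reads in normal medium. A further 8 tRNAs had reads but at most 9 in any library, and 7 had none, which at these depths allows up to 0.171 to 0.189 CPM each by a count of 3. Mature tRNAs are shorter than the fragments usually kept in such libraries, and the size selection is not stated.

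The members wholly inside the copied segment had few reads, and their reads differed between libraries alongside those of the pseudogenes. *mt-Co2*, the copper-binding subunit of complex IV, had 172, 928, 418 and 907 reads. *Gm28661* had 202, 845, 397 and 836. *mt-Co3*, a further core subunit of complex IV, had 69, 351, 199 and 503 reads, against 120, 251, 204 and 472 for *Gm28437*. *mt-Atp6*, a proton-channel subunit of ATP synthase, had 31, 145, 178 and 316, against 58, 197, 194 and 439 for *Gm10925*. The order of the 4 libraries was the same in member and copy for both complex IV genes. For *mt-Atp6* the CH223191-only and 4T1-CM-only libraries changed places in the copy, at 197 and 194 reads.

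In 4T1-CM these 3 genes had the highest ratios of CH223191 to DMSO among the coding genes. The log2 ratio was 1.22 (1.06 to 1.40) for *mt-Co2*, 1.44 (1.21 to 1.69) for *mt-Co3* and 0.93 (0.67 to 1.21) for *mt-Atp6*. The 7 chromosome 1 copies together had a log2 ratio of 1.14 (1.04 to 1.24) in that comparison. The 5 coding genes outside the segment together had -0.04 (-0.06 to -0.03). Of the 7 copies, 6 were at least 2-fold higher there, against 2.75% of all kept genes. For CH223191 in normal medium 5 of the 7 were, against 4.84%. With 4T1-CM the count was 3 of 7 under DMSO and 4 of 7 under CH223191, against 12.2% and 12.0%. In normal medium the ratio of CH223191 to DMSO was 2.43 (2.20 to 2.68) for *mt-Co2*, 2.34 (1.97 to 2.74) for *mt-Co3*, 2.21 (1.66 to 2.84) for *mt-Atp6* and 1.53 (1.39 to 1.67) for the 7 copies. Summed over the 5 members with a whole copy, there were 0.624 member reads per copy read (0.535 to 0.727) in the control, and 1.04, 0.928 and 0.940 in the other 3 libraries.

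Of the remaining genes in the segment, *mt-Nd4l* of complex I had 2, 28, 42 and 61 reads and *mt-Nd3* of complex I had 2, 25, 12 and 15. Their ratios against the control rest on 2 reads there. The fold of CH223191 to DMSO in normal medium was 12.5 (3.12 to 109) for *mt-Nd3* and 14.0 (3.54 to 122) for *mt-Nd4l*. Their copies had more reads in the control: *Gm28438*, the copy of *mt-Nd3*, had 49, 99, 84 and 94 reads, and *Gm10222*, that of *mt-Nd4l*, had 13, 30, 36 and 77. *mt-Nd3* thus had between 0.0408 and 0.253 reads per copy read, below the ratios of the 3 genes above, while *mt-Nd4l* had 0.154 in the control and between 0.792 and 1.17 in the other 3. *mt-Atp8*, the second mitochondrial subunit of ATP synthase, had 2, 0, 3 and 2 reads, too few for a ratio. *mt-Atp8* overlaps *mt-Atp6* and *mt-Nd4l* overlaps *mt-Nd4*, so reads in the overlaps are uncertain for these genes too. By contrast with the whole copies, *mt-Co1* had 610, 542, 649 and 349 reads per read of its partial chromosome 1 copy *Gm29216*. For *mt-Nd4* there were 57.8, 212, 137 and 65.4 per read of *Gm28439*. A less similar copy of *mt-Co1* over its whole length, *Gm13340* on chromosome 2 (97.6% identity), had 22, 31, 69 and 109 reads.

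**Figure D3:**
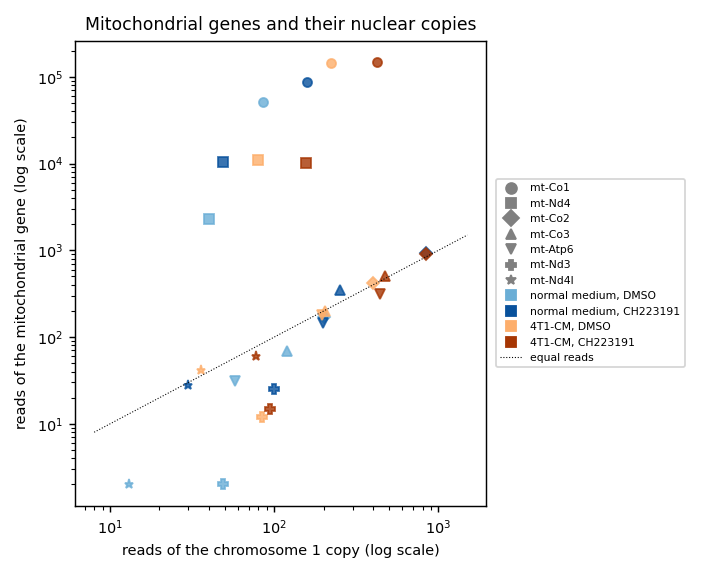
Reads of 7 mitochondrial genes (vertical axis, log scale) against reads of their chromosome 1 pseudogene copy (horizontal axis, log scale), with 1 symbol per gene and 1 colour per library. *mt-Co2*, *mt-Co3* and *mt-Atp6* lie near the dotted line of equal reads, while *mt-Co1* lies 349-fold or more above it and *mt-Nd4* 57.8-fold or more.

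Counted over all members that passed the filter, a change of at least 2-fold was common with 4T1-CM under DMSO and with CH223191 in normal medium. For 4T1-CM with DMSO, 16 of 21 members were at least 2-fold higher and 0 lower, against 12.2% and 6.11% of the 13715 genes kept. For 4T1-CM with CH223191, 5 of 21 were higher (both rRNAs, *mt-Atp6*, *mt-Nd4l* and *mt-Ts2*) and 0 lower, against 12.0% and 7.86% of all genes. For CH223191 in normal medium, 12 of 21 were higher and 1 lower (*mt-Ts2*, from 8 to 3 reads), against 4.84% and 3.31%. *mt-Nd3* and *mt-Nd4l*, counted among both the 16 and the 12, had 2 reads in the control and were kept through the other libraries. The 16 also held *mt-Tl2*, from 7 to 16 reads, whose interval contained 0. For CH223191 in 4T1-CM, 2 of 21 were higher, *mt-Co2* and *mt-Co3* with their identical copies, and 0 lower, against 2.75% and 2.66%. Among members with more than 3 reads in both libraries, 14 of 19, 4 of 20, 10 of 18 and 2 of 21 were higher in these 4 comparisons in turn, and 0 were lower in each. The median log2 ratio of the 21 was 1.53, 0.36, 1.39 and 0.01 in these comparisons, beside 0.01, 0.02, 0.00 and 0.00 over all kept genes. Comparisons that share a library are not independent: the control enters both of those with high counts.

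**Figure D4:**
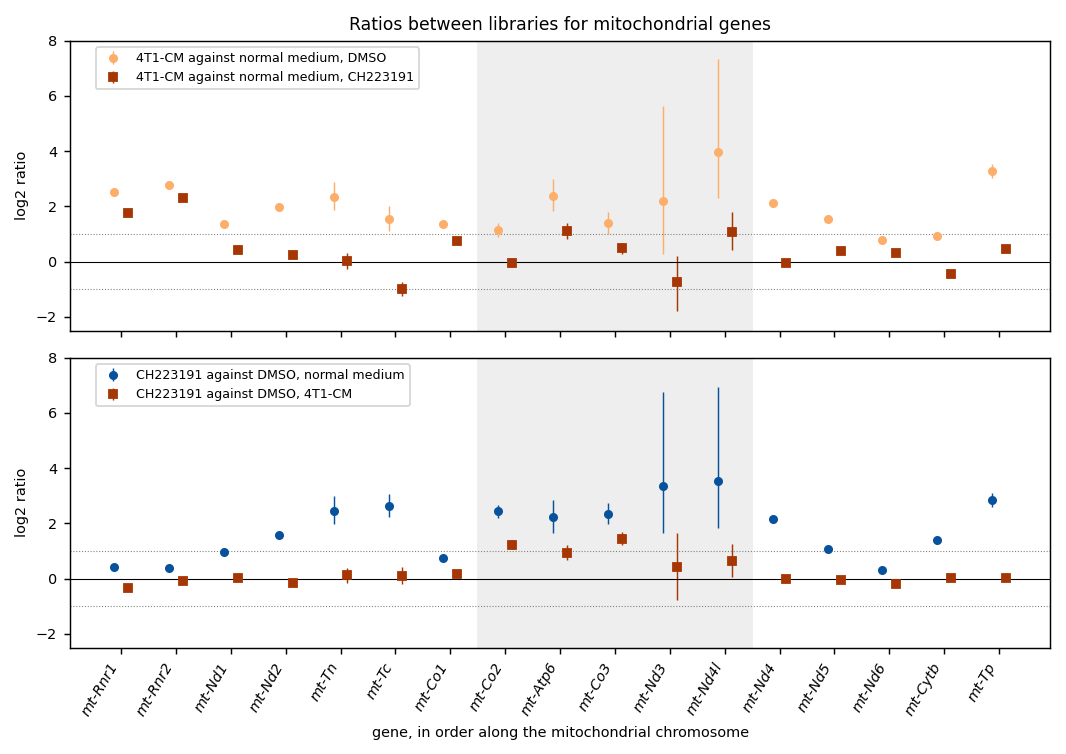
Log2 ratios with 95% counting intervals for 17 mitochondrial genes in order along the chromosome, for 4T1-CM against normal medium (top) and CH223191 against DMSO (bottom). Dotted lines mark 2-fold, and shaded genes lie wholly inside the copied segment. For the genes not shaded, which include the partly copied *mt-Co1* and *mt-Nd4*, CH223191 ratios in 4T1-CM (squares, bottom) lie between -0.34 and 0.15. Those in normal medium (circles) reach 2.83.

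The response to 4T1-CM was smaller with CH223191 than with DMSO for the coding genes, for the rRNAs and for the tRNAs. The summed coding reads were 2.58-fold higher with 4T1-CM under DMSO (2.56 to 2.60) and 1.39-fold higher under CH223191 (1.38 to 1.40). The difference between these responses was -0.89 on the log2 scale (-0.91 to -0.88, a normal approximation here and for the next values). It was -1.16 (-1.18 to -1.14) for the 5 coding genes outside the segment, -0.55 (-0.60 to -0.50) for the rRNAs and -2.71 (-2.92 to -2.49) for *mt-Tp*, *mt-Tc* and *mt-Tn* together. Among coding genes with over 3 reads in every library it ran from -0.49 (*mt-Nd6*) to -2.18 (*mt-Nd4*). These differences compare 4 single libraries, and all of them contain the control, which had the lowest mitochondrial share.

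The nuclear genes that serve mitochondrial DNA had median ratios near those of all genes. For the 16 of 17 listed genes that passed the filter in mitochondrial DNA transcription and maintenance, the median log2 ratio was 0.04 for 4T1-CM with DMSO and -0.01 for CH223191 in normal medium. In the 4 comparisons 1 gene was past 2-fold upwards, *Mterf1b* (10 to 24 reads with 4T1-CM under DMSO, with a near-identical paralog that makes its count uncertain), and 1 downwards, *Tfb1m* (96 to 43 reads with CH223191 in 4T1-CM). *Tfam*, which packages mitochondrial DNA and starts its transcription, had log2 ratios of -0.16 (-0.37 to 0.06) for 4T1-CM with DMSO and -0.36 (-0.59 to -0.12) for CH223191 in normal medium. *Polrmt*, the mitochondrial RNA polymerase, had -0.30 (-0.52 to -0.08) and -0.26 (-0.48 to -0.04). *Lrpprc*, which stabilises mitochondrial mRNAs, had -0.25 (-0.38 to -0.13) and -0.46 (-0.60 to -0.33). All 3 were below 0 in both comparisons, which share the control library, and the *Tfam* interval for 4T1-CM contained 0. For 4T1-CM with CH223191 the ratio was 0.23 (-0.01 to 0.46) for *Tfam*, -0.04 (-0.28 to 0.19) for *Polrmt* and 0.15 (0.0049 to 0.29) for *Lrpprc*. Of the 21 genes of mitochondrial RNA processing and stability, *Slirp* alone was past 2-fold in any comparison, with 4, 39, 13 and 6 reads. *Slirp* encodes the partner of Lrpprc. Of 8 regulators of mitochondrial biogenesis, *Myc* alone passed 2-fold, lower with 4T1-CM under CH223191 (340 to 153 reads). *Ppargc1a*, which encodes the coactivator PGC-1α, had 18, 16, 11 and 12 reads, and its interval contained 0 in each comparison. *Mterf1b*, *Tfb1m*, *Slirp* and *Myc* were named after their values were seen.

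The nuclear-encoded subunits of the same complexes had medians below 0 with 4T1-CM. The median of the 12 kept mitochondrial coding genes was 1.46 under DMSO and 0.34 under CH223191. Under CH223191, 4 of these 12 were below 0, among them *mt-Cytb* of complex III at -0.44. Of the 72 measured subunits of complexes I, III, IV and V, 0 were at least 2-fold higher and 4 lower with 4T1-CM under DMSO. The 4 were *Ndufa2* and *Ndufb7* of complex I, and *Atp5k* and *Atp5e* of complex V. Of all kept genes, 12.2% were higher and 6.11% lower. The median log2 ratio of the subunits was -0.26. Under CH223191 the counts were 0 higher and 15 lower, 11 of them in complex I, against 7.86% of all genes lower, with a median of -0.61. With CH223191 in normal medium 10 subunits were higher and 0 lower, against 4.84% and 3.31% of all genes, with a median of 0.34. In 4T1-CM none passed 2-fold in either direction, against 2.75% of all genes higher and 2.66% lower. The median there was -0.03. *Ndufa2* had log2 ratios of -1.38 and -1.53 for 4T1-CM with DMSO and CH223191, *Ndufb7* had -1.05 and -1.10, *Atp5k* -1.52 and -2.31, and *Atp5e* -1.18 and -1.05. Of 77 kept mitochondrial ribosomal protein genes, 2 were lower with 4T1-CM under DMSO (*Mrps26* and, named after its values were seen, *Mrpl51*) and 8 under CH223191, beside the same 6.11% and 7.86% of all genes. Their medians were -0.21 and -0.39, and none was at least 2-fold higher, against 12.2% and 12.0% of all genes. With CH223191 in normal medium 3 were higher and 0 lower, against 4.84% and 3.31% of all genes, with a median of 0.19. The medians of these proteins and of the rRNAs of the same ribosome thus had opposite signs for 4T1-CM.

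Gene length moved with some of these values. Protein-coding genes under 1000 bases (259 genes) had a median log2 ratio of 0.34 for CH223191 in normal medium, against -0.04 for the 8522 genes of 3000 bases or more. For 4T1-CM the medians were -0.15 and 0.04 under DMSO and -0.56 and 0.09 under CH223191. For CH223191 in 4T1-CM they were -0.02 and 0.00. Of the 72 nuclear subunits above, 56 were under 3000 bases, as were 3373 of all 11895 kept protein-coding genes. The part of length in the subunits' counts was not tested. After a trend on length was removed over all kept genes, the summed mitochondrial coding reads had log2 ratios of 1.46 and 0.66 for 4T1-CM and 0.82 and 0.06 for CH223191.

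**Figure D5:**
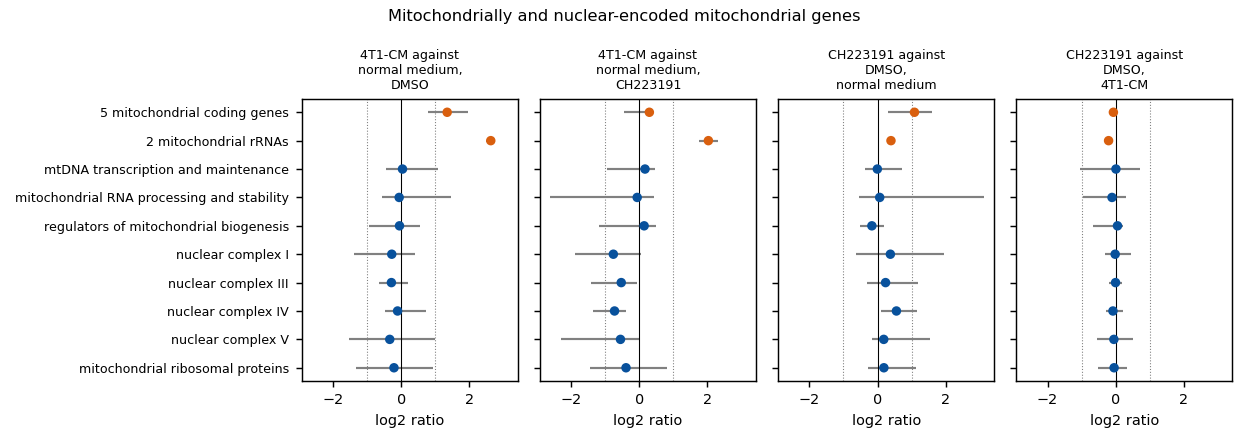
Median (point) and lowest to highest (line) log2 ratio in the 4 comparisons, for the 5 mitochondrial coding genes outside the copied segment, the 2 mitochondrial rRNAs and 8 lists of nuclear genes. Dotted lines mark 2-fold: with 4T1-CM under DMSO the mitochondrial medians are 1.35 and 2.63 and those of the nuclear lists lie between -0.34 and 0.04.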

How the data were processed

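RNA was extracted with TRIzol and libraries were made with the NEBNext Ultra RNA kit. The authors deposited raw read counts per gene, and the labels name HISAT2 2.0.5 and DESeq2 among their tools. The counter, strand setting, poly(A) selection and treatment of multi-mapped reads are not given in the sources used here for these libraries. The paper names FeatureCounts as the counter for its alveolar macrophage libraries, which are not among those read here. Gene coordinates of all 37 members equalled those of GENCODE release M21 (GRCm38). Sequences were read from that release's transcripts, and near-identical genes were found by shared 50-base words and pairwise alignment (biopython 1.88).

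Of 54532 genes, 13715 reached 10 reads in 1 or more libraries and were kept. Library sizes were scaled by edgeR 4.0.16 TMM factors (0.986 to 1.03), and log2 ratios used a prior count of 0.5. Intervals were exact Clopper-Pearson 95% intervals (scipy 1.17.1), except exact Poisson intervals for levels and normal approximations for differences between responses. No test between conditions was run. Each had 1 library, and an additive fit of medium and compound, which would take their interaction as error, was not made. The ratio calculation was checked on simulated counts. Totals were 15535405 to 17557127 reads. Alternatives were DESeq2 1.42.0 size factors, total counts, TMM over nuclear coding genes, other filters and prior counts, copies added or shared members left out, and removal of a lowess trend on gene length.

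The members and lists were chosen with earlier results of these data known. All members are accounted for. Of nuclear lists, genes past 2-fold in 1 direction for a contrast in both of its independent library pairs were named, with *Tfam*, *Polrmt*, *Lrpprc* and *Ppargc1a*. Others are marked as named after their values were seen.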

Additional observations from a re-analysis of the deposited data

Results flagged for a closer look

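For 8 genes the same contrast pointed one way in one pair of libraries and the other way in the second pair, with both counting intervals off 0. There was 1 library per condition, and none of these differences was tested. The log2 ratio of 4T1-CM to normal medium was 2.11 with DMSO and -0.068 with CH223191 for *mt-Nd4*, 0.92 and -0.44 for *mt-Cytb*, and 1.54 and -0.98 for *mt-Tc*. For CH223191 against DMSO, the value in normal medium and then in 4T1-CM was 1.59 and -0.15 for *mt-Nd2*, and 1.09 and -0.067 for *mt-Nd5*. It was 0.31 and -0.18 for *mt-Nd6*, 0.42 and -0.34 for *mt-Rnr1*, and 0.37 and -0.080 for *mt-Rnr2*. The negative value of *mt-Nd4* was 0.13 once a length trend over all genes had been taken out.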

How the results depend on the processing

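Each condition had 1 library, so none was left out. No paired analysis was possible because the groups, with a single library each, share only 1 replicate number. An additive fit of medium and compound was not run. The summed coding reads kept the direction of their log2 ratio in every setting for 3 of 4 comparisons. For 4T1-CM under DMSO, against 1.37, the ratio was 1.326 with total counts, 1.337 with members sharing at most 20% of their words, 1.397 without *mt-Co1* and 1.457 with the length trend removed. For 4T1-CM under CH223191, against 0.47, it was 0.465 with DESeq2 size factors, 0.175 with little-shared members, 0.151 without *mt-Co1* and 0.663 without the length trend. For CH223191 in normal medium, against 0.97, it was 0.908 with total counts, 1.117 with little-shared members, 1.22 without *mt-Co1* and 0.821 without the length trend. For CH223191 in 4T1-CM, against 0.07, it was 0.0608 with DESeq2 size factors, 0.0643 with total counts and 0.057 without the length trend, and negative with little-shared members (-0.0446) and without *mt-Co1* (-0.0263). The difference between the 4T1-CM responses was -0.844 with total counts and -1.162 with little-shared members. Leaving out the 7 members that share over 20% of their words left 14 of the 21 kept members. For 4T1-CM, those at least 2-fold higher went from 16 of 21 to 9 of 14 under DMSO and from 5 of 21 to 3 of 14 under CH223191. For CH223191 they went from 12 of 21 to 6 of 14 in normal medium and from 2 of 21 to 0 of 14 in 4T1-CM. Of all kept genes, 12.2%, 12.0%, 4.84% and 2.75% were at least 2-fold higher in these comparisons in turn. With 10 reads required in every library, 3 members were higher with 4T1-CM under CH223191. The 1 member lower with CH223191 in normal medium became 0 with that filter and with a prior count of 5. With no filter the counts at least 2-fold lower were 2 and 3 for 4T1-CM and 3 and 2 for CH223191, all resting on 9 reads or fewer. The mitochondrial share, in the 4 libraries in order, was 0.587%, 1.101%, 1.471% and 1.538% for coding members alone, and 0.596%, 1.121%, 1.497% and 1.567% of protein-coding reads. With the reads of nuclear copies added it was 1.177%, 1.764% and 1.809% in the last 3. Among single genes, adding those reads took *mt-Co2* (0.99), *mt-Co3* (0.96) and *mt-Nd3* (0.77) below 2-fold for 4T1-CM under DMSO and *mt-Atp6* (1.13) above it for CH223191 in 4T1-CM. Without the length trend *mt-Cytb* (1.03, 4T1-CM under DMSO) passed 2-fold and *mt-Nd5* (0.98, CH223191 in normal medium) did not. Of 117 recomputed sums, counts, differences and shares 76 moved by less than their limits, and of 336 recomputed single-gene ratios 290 did. The depth limits all tRNAs but 3, and *mt-Nd3*, *mt-Nd4l* and *mt-Atp8*.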
